A study of Arabidopsis thaliana with 38 samples.

Results

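UDP-glycosyltransferases of family 1, named UGT with a number, a letter and a number, join a sugar from a UDP-sugar donor to small molecules such as hormones, flavonols, lignin precursors and glucosinolate intermediates. The number and letter of the name mark a subfamily of related sequences. In leaves, sugar conjugation is known to change the solubility, storage and activity of the acceptor, and much of the hormone and phenylpropanoid pool is held as glycosides. The genes described here were all ATH1 probe sets annotated to exactly 1 gene whose symbol begins with UGT and a digit. This gave 47 genes with 1 probe set each, of 13513 probe sets with 1 gene and 22746 tested probe sets, in 21 subfamilies of which 11 had 2 members or more. No member was selected on its measured values. No filter on low values was applied, so all 47 were tested. The mean of 15 members lay below a log2 value of 3.13, the level under which 25% of all tested probe sets fell, and these are called dim.

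The series followed the cold-regulated transcriptome, the polysome-bound transcriptome and the mRNAs bound by CSP1, an RNA-binding protein with a cold shock domain, in Col-0 rosettes. Plants were 25 days old. In CSP1-FH (35S:AtCSP1-FH#11) the 35S promoter drives a tagged CSP1, the csp1 mutant line is atcsp1-1, and in HF-RPL18 (35S:HF-RPL18#12-2-4), against which the other lines were set, the same promoter drives a tagged ribosomal protein. Each genotype is thus represented by 1 line. Cold plants spent 12 h at 4 °C in weaker light (50 against 100 µE), starting 2 h into the light period, and non-stress plants stayed at 23 °C; temperature and light cannot be told apart. Total RNA, polysomal RNA (at least 2 ribosomes per mRNA) and RNA recovered from cross-linked leaves with an anti-CSP1 antibody (CSP1-IP) were each hybridised to 1 array per sample. CSP1-FH had 12 arrays and atcsp1-1 had 8, with 2 per group, and HF-RPL18 had 18, with 3 per group. No CSP1-IP arrays of atcsp1-1 and no immunopurification with another antibody were analysed here.

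Precision is limited by the number of arrays, 38 in all. CSP1-IP arrays were less reproducible: the mean SD of a value around its group mean was 0.37, against 0.22 on polysomal and 0.20 on total arrays. Of 11 mesophyll markers, 6 had a named probe set, and these lay between 10.69 and 13.65 on total arrays. The guard cell list had 4 of 6 and the trichome list 1 of 4, TRY. The phloem, root and inflorescence markers had none, so those tissues were not checked. Neither the CSP1 gene nor the RPL18 gene had a probe set with a name, so the altered genes were not checked.

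In the cold, a minority of the family changed in total RNA, and in both directions. In CSP1-FH, 9 of 47 members rose and 5 fell, where 7.71% of all tested probe sets rose and 8.49% fell. In atcsp1-1, 7 rose and 4 fell, where 8.3% rose and 9.98% fell. In HF-RPL18, 12 rose and 5 fell, where 10.1% rose and 12.5% fell. The share of the members that rose was thus above the background in each line, and the median response of the 47 members was 0.00 in CSP1-FH, -0.02 in atcsp1-1 and 0.02 in HF-RPL18. The 6 members that rose in all 3 lines were UGT71C2, UGT72B3, UGT72E1, UGT74D1, UGT78D2 and UGT78D3 (12.8% of the members, where 5.61% of all probe sets rose in all 3). The 4 that fell in all 3 were UGT71B1, UGT74B1, UGT76E11 and UGT85A5 (8.51%, where 6.31% of all probe sets fell in all 3). No member rose in 1 line and fell in another. Among the tissue markers, TRY lay at 2.89 to 3.36 on cold and 4.07 to 6.49 on non-stress total arrays, and fell in every line (-1.94, -2.09 and -2.23 in CSP1-FH, atcsp1-1 and HF-RPL18, adjusted p = 0.0203, 0.0107 and 0.000769). The guard cell list's AT1G22690 rose in every line (1.48, 1.19 and 1.32, adjusted p = 0.000109, 0.00103 and 1.81e-05), while its SPCH, MUTE and FMA passed in none (-0.36 to 0.40). Of the mesophyll markers, LHCB4.2 rose (0.89, adjusted p = 0.00533) and ATPC1 fell (-0.45, adjusted p = 0.00359) in HF-RPL18, and the other 4 passed in no line. The part of these markers in the family's values was not tested. Calls are at an adjusted p below 0.05 in limma, by the Benjamini-Hochberg method across the 22746 probe sets; below, a pair of numbers in brackets gives a difference and then its adjusted p, and a value after ± is a standard error; in whole rosettes, fewer cells of a type and less RNA per cell cannot be told apart. Without any 1 of its 4 arrays the count of calls in CSP1-FH was 6 to 8, against 14 with all of them.

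**Figure D1:**
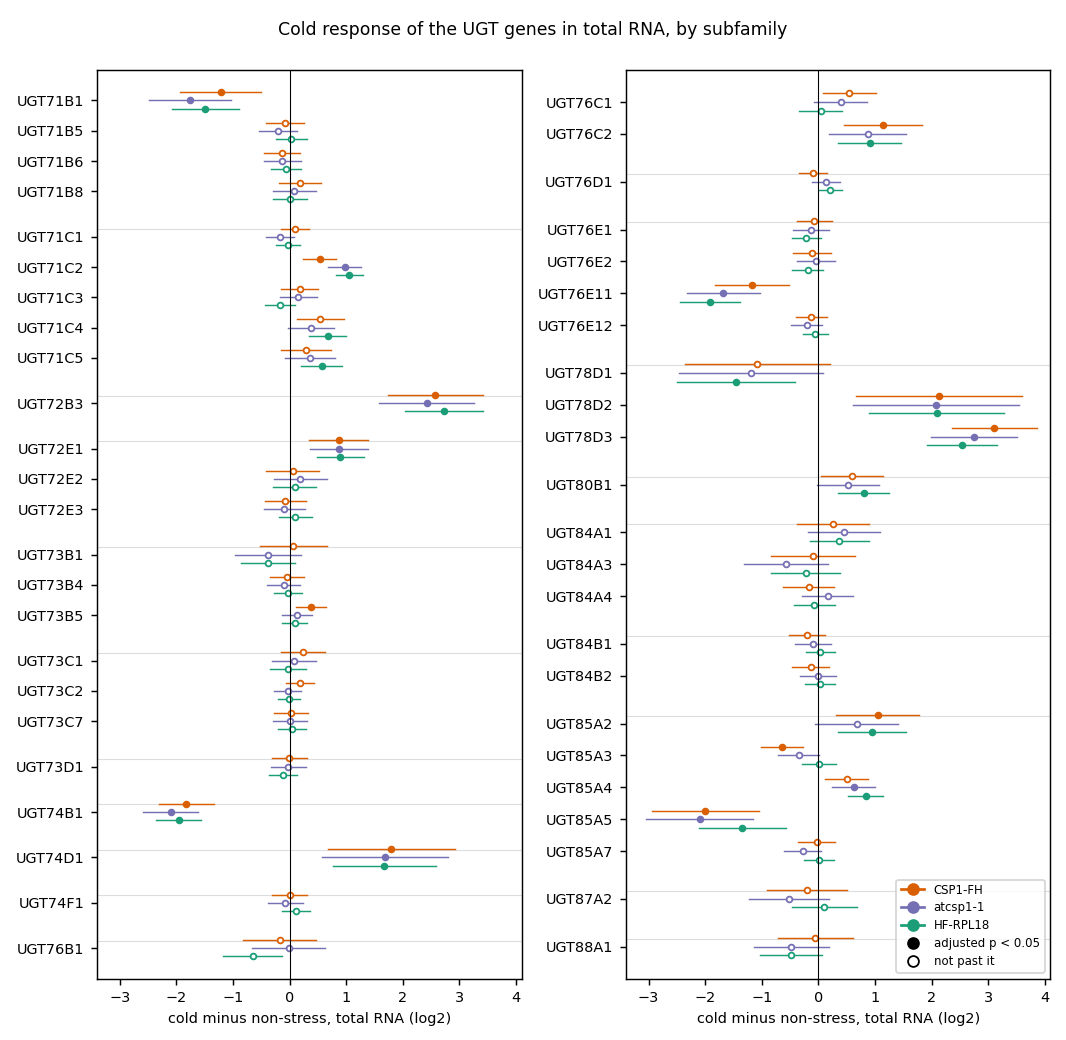
Cold minus non-stress difference in total RNA (log2, x axis) for the 47 UGT genes (y axis, grouped by subfamily) in CSP1-FH, atcsp1-1 and HF-RPL18, with 95% intervals; filled points passed an adjusted p of 0.05. UGT78D3 and UGT72B3 stand farthest to the right, and UGT74B1, UGT76E11 and UGT85A5 farthest to the left.

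The UGT78D subfamily, whose enzymes put the sugar on the 3-position of flavonols and anthocyanidins, held 2 members that rose in every line and 1 that fell in HF-RPL18. UGT78D3, a flavonol 3-O-arabinosyltransferase, had 5.62 and 6.89 in cold CSP1-FH and 3.28 and 3.01 in non-stress CSP1-FH (log2 values, here and below). It had 5.45 and 6.04 in cold atcsp1-1, against 3.11 and 2.89 in non-stress atcsp1-1. The HF-RPL18 arrays had 5.85, 5.83 and 5.78 in the cold, against 3.15, 3.28 and 3.40 in non-stress plants. The groups did not overlap in any line. The non-stress values lay near the dim level, and whether this limits the measured size of the increase was not tested. The difference was 3.11 ± 0.37 (SE) in CSP1-FH, 2.75 ± 0.37 in atcsp1-1 and 2.54 ± 0.30 in HF-RPL18, an increase of 8.64-fold, 6.71-fold and 5.82-fold (limma, adjusted p = 6.69e-07, 3.55e-06 and 2.94e-07), and each call held without any 1 array of that line.

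UGT78D2, the flavonoid 3-O-glucosyltransferase, rose to 9.50 and 9.30 in cold CSP1-FH, against 8.23 and 6.31 in non-stress CSP1-FH. In atcsp1-1 it rose to 9.33 and 8.97, against 7.94 and 6.21. In HF-RPL18 it rose to 9.82, 8.80 and 9.65, against 8.71, 5.95 and 7.34. The cold arrays lay close together, while the non-stress arrays were spread widely, with replicate 2 lowest in every line. The differences were 2.13 ± 0.71, 2.08 ± 0.71 and 2.09 ± 0.58 in CSP1-FH, atcsp1-1 and HF-RPL18 (adjusted p = 0.0393, 0.0412 and 0.00881). In a limma fit blocked on replicate number, the adjusted p was 0.000342, 0.000377 and 2.38e-05 in these lines. Without the block, the HF-RPL18 call was lost without non-stress replicate 2 (1.40, adjusted p = 0.1). In CSP1-FH it was lost without cold replicate 1 (2.03, 0.154), non-stress replicate 2 (1.17, 0.489) or cold replicate 2 (2.23, 0.13), and in atcsp1-1 without cold replicate 1 (1.90, 0.191), non-stress replicate 2 (1.22, 0.448) or cold replicate 2 (2.26, 0.11).

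UGT78D1, the flavonol 3-O-rhamnosyltransferase, moved the other way. It had 7.25 and 7.30 in cold CSP1-FH against 9.00 and 7.70 in non-stress CSP1-FH, and 6.78 and 6.99 in cold atcsp1-1 against 9.11 and 7.03 in non-stress atcsp1-1. In HF-RPL18 it had 7.27, 6.04 and 7.13 in the cold, against 9.32, 7.40 and 8.06. The fall passed the test in HF-RPL18 alone (-1.45 ± 0.51, adjusted p = 0.0384). The difference was -1.08 in CSP1-FH and -1.18 in atcsp1-1, and no difference between lines in this response passed its test. In a limma fit blocked on replicate number, the HF-RPL18 fall had an adjusted p of 0.00375. Without the block, the HF-RPL18 call was lost without non-stress replicate 1 (-0.92, 0.244), non-stress replicate 3 (-1.55, 0.0604) or cold replicate 2 (-1.06, 0.216).

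**Figure D2:**
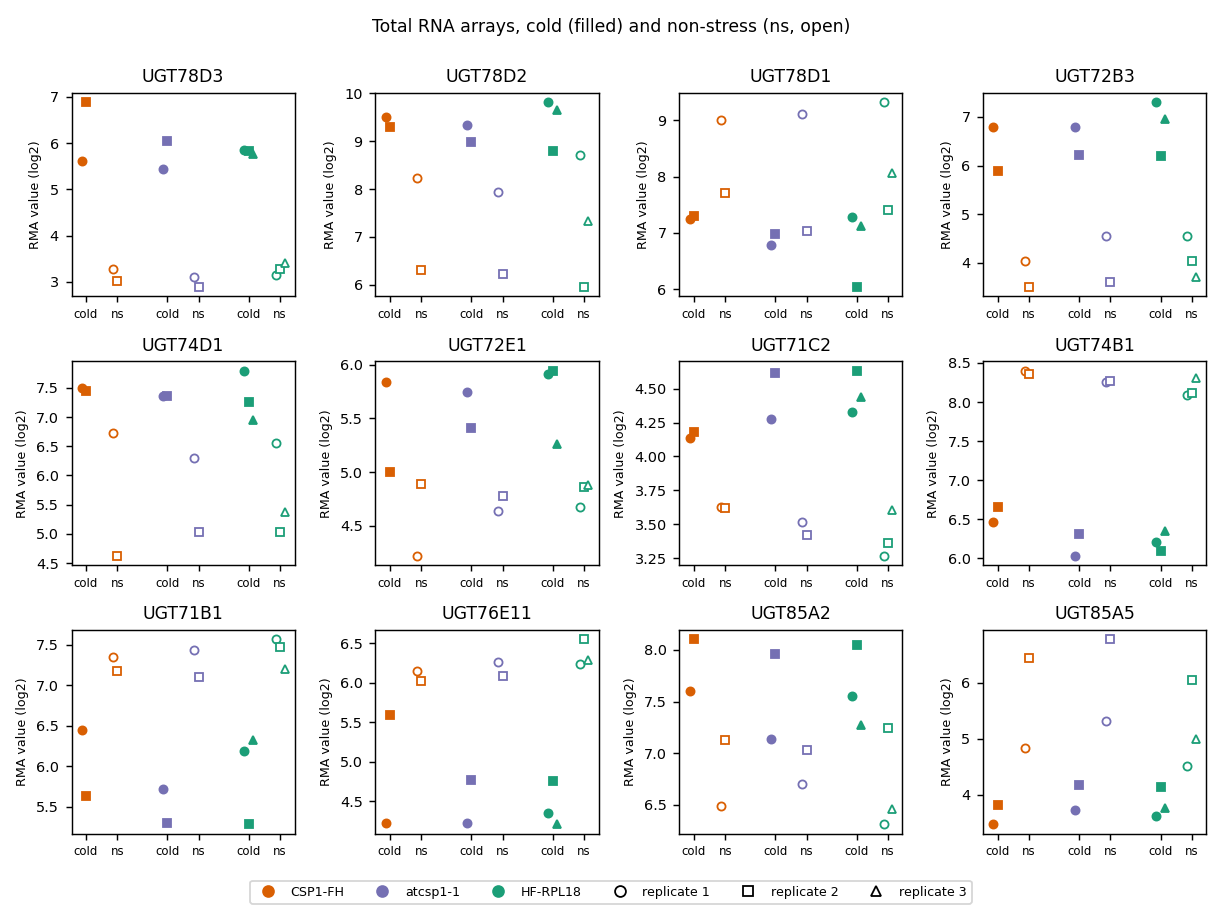
Deposited log2 values (y axes, a scale for each gene) of 12 UGT genes on every total RNA array, cold left of non-stress within each line; symbols give the replicate number. UGT78D3, UGT72B3 and UGT74B1 show a clear gap between cold and non-stress in each line, while the non-stress arrays of UGT78D2, UGT78D1, UGT74D1 and UGT85A5 spread by replicate number.

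The spread by replicate number was shared by several members. How many members or probe sets keep 1 order of replicates in all 3 lines was not counted, so the genes named here are examples without a background. On the non-stress total arrays, replicate 1 exceeded replicate 2 in all 3 lines for UGT78D2 and also for UGT78D1 and UGT74D1. For UGT85A5 and UGT84A3 replicate 2 exceeded replicate 1 in all 3 lines. UGT84A3 had 6.94 on replicate 2 and 6.15 on replicate 1 in CSP1-FH, 7.29 and 6.39 in atcsp1-1, and 7.22 and 6.18 in HF-RPL18. Same-numbered total arrays of HF-RPL18 deviated together over all probe sets, and what the numbers stand for is not given in the labels.

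Among the members that act on lignin precursors and other phenylpropanoids, UGT72B3 and UGT72E1 rose in every line. UGT72B3 belongs to the subfamily of UGT72B1, which conjugates monolignols and chlorinated xenobiotics. It had 6.80 and 5.88 in cold CSP1-FH against 4.03 and 3.496 in non-stress CSP1-FH, and 6.79 and 6.22 in cold atcsp1-1 against 4.54 and 3.61 in non-stress atcsp1-1. In HF-RPL18 it had 7.31, 6.20 and 6.95 in the cold, against 4.55, 4.03 and 3.71. The difference was 2.58 ± 0.41, 2.43 ± 0.41 and 2.72 ± 0.33 in CSP1-FH, atcsp1-1 and HF-RPL18 (adjusted p = 4.52e-05, 8.61e-05 and 5.54e-07), with no overlap in any line and no call lost without any 1 array.

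UGT72E1, which glucosylates coniferaldehyde, had 5.84 and 5.00 in cold CSP1-FH and 4.22 and 4.89 in non-stress CSP1-FH. In atcsp1-1 it had 5.75 and 5.41, against 4.64 and 4.78, and in HF-RPL18 5.91, 5.94 and 5.27, against 4.68, 4.86 and 4.88. Every cold array lay above the non-stress arrays of its line, and the difference was 0.87 ± 0.25, 0.87 ± 0.25 and 0.90 ± 0.21 (adjusted p = 0.0174, 0.0148 and 0.00167). The call held without any 1 array in HF-RPL18. In CSP1-FH it was lost without non-stress replicate 1 (0.53, 0.309) or cold replicate 1 (0.45, 0.379), and in atcsp1-1 without non-stress replicate 1 (0.80, 0.105), cold replicate 1 (0.70, 0.16) or non-stress replicate 2 (0.94, 0.0505).

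UGT72E2 and UGT72E3, which act on the monolignol alcohols and sinapate-related aldehydes, passed in no line, and their differences lay between -0.09 and 0.19. UGT84A1, UGT84A3 and UGT84A4 form a run of adjacent genes whose enzymes are known to make glucose esters of hydroxycinnamates. None of them passed, with differences of -0.58 to 0.45 over the 3 lines, and UGT84A1 had the largest difference of the subfamily in HF-RPL18 (0.37). A limma fit blocked on replicate number called UGT84A3 lower in atcsp1-1 (-0.58, adjusted p = 0.0289).

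Of the members known to conjugate hormones, UGT74D1, an auxin glucosyltransferase, rose in all 3 lines. It had 7.50 and 7.45 in cold CSP1-FH against 6.72 and 4.62 in non-stress CSP1-FH. In atcsp1-1 it had 7.36 and 7.35 in the cold, against 6.30 and 5.03. HF-RPL18 plants had 7.80, 7.25 and 6.94 in the cold, against 6.55, 5.03 and 5.38. Cold values lay in a narrow band, and the gap to the non-stress arrays was larger for replicate 2 than for replicate 1 in every line. The difference was 1.80 ± 0.54, 1.69 ± 0.54 and 1.68 ± 0.44 (adjusted p = 0.0217, 0.0284 and 0.00606). In a limma fit blocked on replicate number, the adjusted p was 0.00131, 0.00201 and 0.000229 in CSP1-FH, atcsp1-1 and HF-RPL18. Without the block, the HF-RPL18 call held without any 1 array. In CSP1-FH it was lost without cold replicate 1 (1.78, 0.093), cold replicate 2 (1.82, 0.101) or non-stress replicate 2 (0.75, 0.54), and in atcsp1-1 without cold replicate 1 (1.69, 0.113), cold replicate 2 (1.697, 0.119) or non-stress replicate 2 (1.05, 0.365).

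UGT76C1 and UGT76C2, neighbours that N-glucosylate cytokinins, differed in their calls. UGT76C2 had 6.16 and 6.70 in cold CSP1-FH against 5.23 and 5.35 in non-stress CSP1-FH, and in HF-RPL18 6.17, 6.76 and 5.58 against 5.16, 5.57 and 5.05. It rose by 1.14 ± 0.33 in CSP1-FH (adjusted p = 0.0173) and by 0.91 ± 0.27 in HF-RPL18 (adjusted p = 0.0148). In atcsp1-1, with 6.08 and 6.69 against 5.31 and 5.72, the difference was 0.87 and did not pass. A limma fit blocked on replicate number called this atcsp1-1 difference (adjusted p = 0.00364). The CSP1-FH call was lost without non-stress replicate 1 (1.08, 0.101), non-stress replicate 2 (1.20, 0.0719) or cold replicate 2 (0.87, 0.22), and the HF-RPL18 call without cold replicate 2 (0.61, 0.145) or non-stress replicate 3 (0.80, 0.0668). UGT76C1 passed in no line, with 0.54, 0.39 and 0.04 in CSP1-FH, atcsp1-1 and HF-RPL18; whether the neighbours differ from each other was not tested.

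UGT71C5, an abscisic acid glucosyltransferase, and UGT80B1, a sterol glucosyltransferase, rose in HF-RPL18 and did not pass in the other lines (0.57 ± 0.18, adjusted p = 0.0203, and 0.80 ± 0.22, adjusted p = 0.00751). Their differences in CSP1-FH were 0.29 and 0.59, and those in atcsp1-1 were 0.36 and 0.52, with no difference between lines past the test. The call of UGT71C5 was lost without non-stress replicate 1 (0.43, 0.118), cold replicate 2 (0.52, 0.0758) or non-stress replicate 3 (0.53, 0.0667). UGT74F1, a salicylate glucosyltransferase, UGT84B1, an indole acetate glucosyltransferase, and UGT71B6, which conjugates abscisic acid, were dim and passed in no line (-0.21 to 0.11). UGT76B1, which conjugates isoleucic acid and salicylate, was dim too and had -0.65 in HF-RPL18. It had 2.42, 2.83 and 2.62 in the cold there, against 4.00, 2.93 and 2.90, so non-stress replicate 1 stood apart. A limma fit blocked on replicate number called the fall (adjusted p = 0.0417).

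UGT74B1, which adds the glucose in glucosinolate core synthesis, was the most uniform of the members that fell. It had 6.46 and 6.65 in cold CSP1-FH against 8.40 and 8.36 in non-stress CSP1-FH. In atcsp1-1 it had 6.03 and 6.31, against 8.26 and 8.27. The HF-RPL18 values were 6.21, 6.09 and 6.35, against 8.09, 8.12 and 8.31. The cold arrays lay below the non-stress arrays in every line. The difference was -1.82 ± 0.24, -2.10 ± 0.24 and -1.96 ± 0.19 in CSP1-FH, atcsp1-1 and HF-RPL18, a level 3.54-fold, 4.28-fold and 3.88-fold lower (adjusted p = 2.77e-06, 2.67e-07 and 1.47e-08). No call was lost without any 1 array.

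UGT76E11, of a subfamily that includes jasmonate- and flavonol-conjugating enzymes, fell to 4.23 and 5.59 in cold CSP1-FH, against 6.15 and 6.02 in non-stress CSP1-FH. In atcsp1-1 it fell to 4.22 and 4.77, against 6.27 and 6.08, and in HF-RPL18 to 4.36, 4.75 and 4.21, against 6.24, 6.55 and 6.28. The difference was -1.17 ± 0.32, -1.68 ± 0.32 and -1.92 ± 0.26 in CSP1-FH, atcsp1-1 and HF-RPL18 (adjusted p = 0.00996, 0.000302 and 2.13e-06). Cold replicate 2 of CSP1-FH stood nearest to the non-stress level, and the CSP1-FH call was lost without cold replicate 1 (-0.49, 0.395) or non-stress replicate 1 (-1.11, 0.0725). The other 3 members of the subfamily, UGT76E1, UGT76E2 and UGT76E12, were dim and had differences of -0.22 to -0.04.

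UGT71B1 fell to 6.45 and 5.64 in cold CSP1-FH, against 7.35 and 7.18 in non-stress CSP1-FH. In atcsp1-1 it fell to 5.72 and 5.30, against 7.43 and 7.10, and in HF-RPL18 to 6.19, 5.28 and 6.33, against 7.57, 7.48 and 7.21. The difference was -1.22 ± 0.35, -1.76 ± 0.35 and -1.49 ± 0.29 (adjusted p = 0.016, 0.000556 and 0.000271), and the groups did not overlap. The CSP1-FH call was lost without non-stress replicate 1 (-1.14, 0.103), non-stress replicate 2 (-1.30, 0.0622) or cold replicate 2 (-0.81, 0.283). The other 3 members of the subfamily had differences of -0.21 to 0.18 over the 3 lines.

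In the RefSeq table of assembly TAIR10.1, 24 of the 47 members lie in 10 runs of neighbouring members. The run of UGT85A7, UGT85A2, UGT85A5 and UGT85A3 held a rise, a fall and members near 0. UGT85A2 rose to 7.60 and 8.10 in cold CSP1-FH, against 6.49 and 7.12, and to 7.55, 8.04 and 7.27 in cold HF-RPL18, against 6.31, 7.24 and 6.46 (1.05 ± 0.36, adjusted p = 0.0443, and 0.95 ± 0.29, adjusted p = 0.0176). In atcsp1-1 it had 7.13 and 7.96 in the cold, against 6.70 and 7.04, a difference of 0.68 that did not pass. A limma fit blocked on replicate number called this atcsp1-1 difference (adjusted p = 0.0473). Its CSP1-FH call was lost without non-stress replicate 1 (0.73, 0.358), cold replicate 1 (1.30, 0.0538) or cold replicate 2 (0.79, 0.334). The HF-RPL18 call was lost without non-stress replicate 1 (0.77, 0.0863), cold replicate 2 (0.74, 0.117) or non-stress replicate 3 (0.85, 0.0741).

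UGT85A5 fell to 3.47 and 3.82 in cold CSP1-FH, against 4.84 and 6.45 in non-stress CSP1-FH. It fell to 3.73 and 4.18 in cold atcsp1-1, against 5.33 and 6.78, and to 3.63, 4.13 and 3.76 in cold HF-RPL18, against 4.51, 6.04 and 5.00. The difference was -2.00 ± 0.46, -2.10 ± 0.46 and -1.34 ± 0.38 (adjusted p = 0.00285, 0.00153 and 0.00927), and each line lost the call without its non-stress replicate 2 (-1.19, 0.158, in CSP1-FH, -1.37, 0.0895, in atcsp1-1 and -0.91, 0.101, in HF-RPL18). In a limma fit blocked on replicate number, the fall of UGT85A5 had an adjusted p of 1.5e-05, 6.47e-06 and 0.000105 in CSP1-FH, atcsp1-1 and HF-RPL18. UGT85A3 passed in CSP1-FH alone, with 3.56 and 3.36 in the cold against 4.103 and 4.096 (-0.64 ± 0.18, adjusted p = 0.0135). That call was lost without non-stress replicate 1 (-0.64, 0.072), non-stress replicate 2 (-0.64, 0.0762) or cold replicate 2 (-0.54, 0.144). UGT85A7 stayed between -0.28 and 0.02.

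UGT85A4, which lies apart from that run, had 4.85 and 5.11 in cold atcsp1-1 against 4.29 and 4.41, and 5.02, 5.52 and 5.44 in cold HF-RPL18 against 4.22, 4.59 and 4.68. It rose by 0.63 ± 0.18 in atcsp1-1 (adjusted p = 0.0165) and 0.84 ± 0.15 in HF-RPL18 (adjusted p = 0.000129). In CSP1-FH it had 5.04 and 5.30 in the cold, against 4.46 and 4.88, and the difference of 0.50 did not pass. A limma fit blocked on replicate number called this CSP1-FH difference (adjusted p = 0.00742). The atcsp1-1 call was lost without non-stress replicate 1 (0.57, 0.119), non-stress replicate 2 (0.69, 0.0511) or cold replicate 2 (0.50, 0.185).

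In the UGT71C subfamily, UGT71C2 rose in all 3 lines. It had 4.14 and 4.18 in cold CSP1-FH against 3.63 and 3.62, 4.28 and 4.61 in cold atcsp1-1 against 3.52 and 3.42, and 4.33, 4.63 and 4.44 in cold HF-RPL18 against 3.27, 3.36 and 3.61. The groups did not overlap, and the difference was 0.53 ± 0.14, 0.97 ± 0.14 and 1.05 ± 0.12 (adjusted p = 0.00984, 1.41e-05 and 1.09e-07). The CSP1-FH call was lost without non-stress replicate 1 (0.54, 0.0548), non-stress replicate 2 (0.53, 0.0658) or cold replicate 2 (0.51, 0.076). Its neighbour UGT71C1 was dim and had -0.17 to 0.10. In the other run of the subfamily, UGT71C4 rose in HF-RPL18 (0.67 ± 0.16, adjusted p = 0.00263), with 0.55 in CSP1-FH and 0.38 in atcsp1-1, and UGT71C3, which conjugates methyl salicylate, was dim and had -0.16 to 0.18. A limma fit blocked on replicate number called UGT71C4 in CSP1-FH as well (adjusted p = 0.00632).

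No total-RNA call was made in any line for 28 members, of which 14 were dim. In the UGT73B, UGT73C and UGT84B subfamilies, which hold 8 of the members, the differences in HF-RPL18 ran from -0.38 (UGT73B1) to 0.09 (UGT73B5). UGT73B4 and UGT73C1, known from xenobiotic detoxification, had -0.11 to 0.24 over the lines. The only call in these subfamilies was that of UGT73B5 in CSP1-FH (0.38 ± 0.13, adjusted p = 0.0427), a dim member with 3.17 and 3.02 in the cold against 2.71 and 2.72; it was lost without cold replicate 1 (0.31, 0.252), cold replicate 2 (0.45, 0.0805), non-stress replicate 1 (0.37, 0.165) or non-stress replicate 2 (0.39, 0.154). UGT87A2, known from the control of flowering time, and UGT88A1 were both well above the dim level and had -0.53 to 0.10. Blocked on replicate number, the limma fit called UGT87A2 lower in atcsp1-1 (-0.53, adjusted p = 0.0498).

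Comparisons between the lines gave no calls in the family. In total RNA, 0 of 47 members passed in CSP1-FH or atcsp1-1 against HF-RPL18, in the cold or without stress, where between 0.00879% and 0.022% of all probe sets did. At an unadjusted p below 0.05, 1 member was higher and 3 lower in the cold for CSP1-FH (1425 of all 22746 probe sets in either direction). Without stress 2 were lower (678 of all probe sets). For atcsp1-1, 3 were lower in the cold (794 of all probe sets), and 1 was higher and 3 lower without stress (622). The largest differences were -0.63 (UGT76B1) and 0.46 (UGT85A5) in non-stress CSP1-FH, -0.48 (UGT72B3) and 0.47 (UGT76E11) in cold CSP1-FH, 0.87 (UGT85A5) and -0.59 (UGT76B1) in non-stress atcsp1-1, and -0.74 (UGT87A2) and -0.42 (UGT71B1) in cold atcsp1-1. The test of a different cold response in either line against HF-RPL18 gave 0 members in total and polysomal RNA (limma, 0% of all probe sets). At an unadjusted p below 0.05 there were 2 members for CSP1-FH and 0 for atcsp1-1 in total RNA (552 and 616 of all probe sets). In polysomal RNA there were 4 and 1 members (758 and 486 of all probe sets). In total RNA the largest differences in response were those of UGT76E11 (0.74) and UGT85A3 (-0.66) for CSP1-FH and of UGT85A5 (-0.75) and UGT76B1 (0.63) for atcsp1-1. In polysomal RNA they were UGT71C2 and UGT85A4 (-0.72) for CSP1-FH and UGT72E2 (-0.67) and UGT76B1 (0.64) for atcsp1-1. The smallest p was that of UGT71C2 in polysomal RNA, whose response differed by -0.85 ± 0.22 between CSP1-FH and HF-RPL18 (unadjusted p = 0.000692, adjusted p = 1).

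The cold response seen on polysomes was made up of members that also passed in total RNA of at least 1 line. In CSP1-FH, 3 members rose and 2 fell in polysomal RNA, where 4.02% and 3.91% of all probe sets did (7.93% in all). In atcsp1-1, 5 rose and 4 fell, where 4.44% and 5.92% did (10.4% in all), and in HF-RPL18, 8 rose and 3 fell, where 6.42% and 8.1% did. UGT71C2, UGT72B3 and UGT78D3 rose in all 3 lines, and UGT74B1 and UGT76E11 fell in all 3. UGT78D3 had 5.59 and 7.34 on polysomes of cold CSP1-FH, against 3.71 and 3.18 in non-stress CSP1-FH, and its polysomal response was 3.02 in CSP1-FH, 2.80 in atcsp1-1 and 3.07 in HF-RPL18. UGT78D2 had a polysomal response of 1.69, 1.85 and 1.64 and passed in none of these without a block. Blocked on replicate number, the limma fit gave it an adjusted p of 0.02, 0.00861 and 0.0035 in CSP1-FH, atcsp1-1 and HF-RPL18. With the replicate number as a block, 17 members passed in HF-RPL18 instead of 11. How many of all probe sets passed with the block is not given here. The members gained were UGT71C4, UGT73C1, UGT78D2 (1.64, adjusted p = 0.0035) and UGT85A2, which were higher in the cold, and UGT78D1 (-1.24, 0.0459) and UGT85A5 (-1.10, 0.00649), which were lower.

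Polysome loading, the polysomal minus the total value, was higher than 0 for a few members, and no member was called below 0 in any line or condition. In the cold, 1 member was called higher in CSP1-FH, 2 in atcsp1-1 and 4 in HF-RPL18, where 0.339%, 0.18% and 5.11% of all probe sets were (1.52%, 1.31% and 8.47% were called lower, and 1.86%, 1.49% and 13.6% in either direction). Without stress the counts were 1, 0 and 2, where 1.26%, 0.11% and 2.6% were (3.19%, 0.541% and 4.83% lower, and 4.45%, 0.651% and 7.43% in either direction). In non-stress atcsp1-1, where UGT72E1 and UGT84A4 (0.65) were the most loaded, 3 members were above 0 at an unadjusted p below 0.05. In either direction, 2644 of all 22746 probe sets had such a p there. The arrays have medians of 4.24 to 4.52 in all pools, so loading is relative to the average mRNA of each pool.

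UGT72E1 was the member with the highest loading. On polysomes of cold CSP1-FH it had 7.13 and 6.55, against 5.84 and 5.00 in total RNA, and on those of non-stress CSP1-FH 5.95 and 6.02, against 4.22 and 4.89. In atcsp1-1 it had 6.96 and 6.73 against 5.75 and 5.41 in the cold, and 5.48 and 5.70 against 4.64 and 4.78 without stress. In HF-RPL18 it had 6.75, 7.26 and 7.14 against 5.91, 5.94 and 5.27 in the cold, and 5.60, 5.83 and 6.27 against 4.68, 4.86 and 4.88 without stress. Every polysomal array lay above every total array of its group in all 6 comparisons. The loading was 1.41, 1.27 and 1.34 in cold CSP1-FH, atcsp1-1 and HF-RPL18 (adjusted p = 0.00837, 0.0202 and 0.000373), and 1.43, 0.88 and 1.09 in the non-stress plants (adjusted p = 0.00333, 0.158 and 0.00383), so that only non-stress atcsp1-1 did not pass.

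The HF-RPL18 calls of UGT72E1 held without any 1 array. In cold CSP1-FH its loading was lost without total replicate 2 (1.00, 0.135), polysomal replicate 1 (1.13, 0.164) or polysomal replicate 2 (1.703, 0.0675). In non-stress CSP1-FH it was lost without total replicate 1 (1.09, 0.0784) or polysomal replicate 2 (1.39, 0.067). In cold atcsp1-1 it was lost without any of the 4 arrays (1.101 to 1.44, adjusted p up to 0.183).

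In HF-RPL18, UGT71C2 was loaded in the cold and had a loading near 0 without stress, where its values lay near the dim level. It had 5.02, 5.53 and 5.45 on polysomes of cold HF-RPL18, against 4.33, 4.63 and 4.44 in total RNA, and 3.32, 3.49 and 3.54 against 3.27, 3.36 and 3.61 without stress. The loading in HF-RPL18 was 0.86 ± 0.13 in the cold (adjusted p = 0.000122) and 0.04 without stress. The change with cold was 0.83 ± 0.18, ahead of UGT78D3 (0.52), which also lay near the dim level without stress. Whether a loading could be seen at that level was not tested, so neither change is read as a gain of loading with cold. The UGT71C2 change had an unadjusted p of 0.000116 and an adjusted p of 0.294 (limma), so it did not pass over all probe sets. An unadjusted p below 0.05 was seen for 3 members (663 of all 22746 probe sets), and 0 members passed. In cold CSP1-FH the loading was 0.49 and did not pass. In cold atcsp1-1 it was 0.61 (adjusted p = 0.049), a call lost without total replicate 1 (0.44, 0.448), polysomal replicate 1 (0.59, 0.176) or polysomal replicate 2 (0.63, 0.362).

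**Figure D3:**
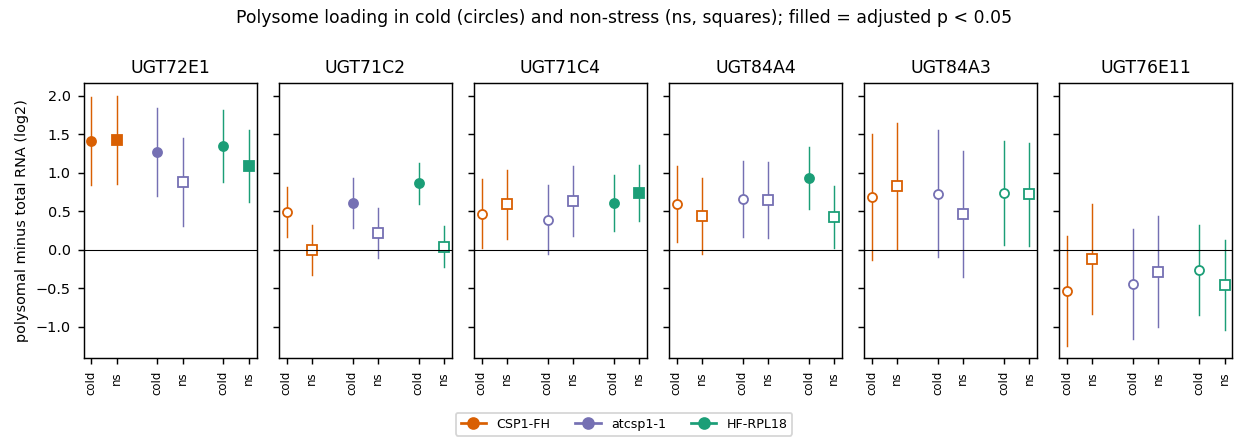
Polysomal minus total RNA (log2, y axis) for 6 UGT genes in cold and non-stress plants of each line, with 95% intervals; filled symbols passed an adjusted p of 0.05. UGT72E1 lies between 0.88 and 1.43, UGT71C2 is higher in the cold than without stress in each line, and UGT76E11 lies below 0 with intervals that include it.

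UGT71C4 was loaded in HF-RPL18 in both conditions (0.61, adjusted p = 0.0236, in the cold and 0.74, adjusted p = 0.0113, without stress). It had 7.97, 8.23 and 8.41 on polysomes against 7.49, 7.60 and 7.70 in total RNA of cold plants, and 7.36, 7.54 and 8.08 against 6.82, 6.84 and 7.10 in non-stress plants. The cold call was lost without total replicate 1 (0.55, 0.0834), polysomal replicate 2 (0.59, 0.0711) or polysomal replicate 3 (0.51, 0.141), and the non-stress call without polysomal replicate 3 (0.53, 0.129). UGT84A4 had 5.24, 5.40 and 5.89 on polysomes of cold HF-RPL18, against 4.52, 4.70 and 4.51 in total RNA, a loading of 0.94 ± 0.20 (adjusted p = 0.0024) that held without any 1 array.

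With the replicate number as a block, 10 members instead of 4 passed in cold HF-RPL18 and 4 instead of 2 in non-stress HF-RPL18, all above 0. How many of all probe sets passed with the block is not given here, so the gain has no background beside it. UGT84A3 was gained in both (0.74, adjusted p = 0.00373, in the cold and 0.72, adjusted p = 0.00623, without stress), as was UGT72B3 (0.49, 0.0451, and 0.59, 0.0226). In the cold UGT71C3, UGT72E3, UGT73C2 and UGT85A4 were gained as well, with 0.29 to 0.41. UGT84A3 had 6.86, 7.16 and 7.36 on polysomes of cold HF-RPL18, against 6.02, 6.87 and 6.28 in total RNA, so that each polysomal array exceeded the total array of the same number. Loading was above 0 in all 6 comparisons for 12 members (25.5%, where 23.1% of all probe sets were) and below 0 in all 6 for UGT74B1 and UGT76E11 (4.26%, where 21.8% were).

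RNA recovered with CSP1 was set against the total RNA pool, within a line and condition. The pools differed in more than the immunopurification. CSP1-IP arrays were made from 3 to 6 ng of RNA from cross-linked leaves. The 3′ minus 5′ GAPDH control signal, a sign of shortened RNA, had a median of 6.90 on the log2 scale (5.02 to 7.60) on CSP1-IP arrays, against 1.47 on polysomal and 1.29 on total arrays, and its part in the results was not tested. The median over all probe sets was 0.16 in cold and 0.20 in non-stress CSP1-FH and 0.20 in cold and 0.13 in non-stress HF-RPL18. It was no more than 0.01 in size after cyclic loess. The calls on the deposited values are of differences from 0, so they include that shift. Members called were 1 higher and 1 lower in cold CSP1-FH (7.76% and 8.88% of all probe sets), and likewise 1 and 1 in non-stress CSP1-FH (12.8% and 12.4%). In cold HF-RPL18, 13 were higher and 9 lower (26.4% and 19.2%, or 45.6% in either direction), and in non-stress HF-RPL18, 2 were higher and 3 lower (9.8% and 12.4%). Each of these shares was near or below the background, and no member passed in all 4 comparisons, where 8.27% of all probe sets did.

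UGT76D1, which conjugates dihydroxybenzoates, was the member most often called higher in CSP1-IP RNA. It had 4.44 and 4.49 in CSP1-IP RNA of cold CSP1-FH, against 3.66 and 3.64 in total RNA, and 4.61 and 4.16 against 3.66 and 3.83 without stress. In HF-RPL18 it had 4.81, 5.02 and 4.96 in the cold, against 3.67, 3.92 and 3.91, and 3.6, 4.48 and 3.88 without stress, against 3.63, 3.5 and 3.76. The groups overlapped in non-stress HF-RPL18 alone. The difference was 0.82 ± 0.22 in cold CSP1-FH (adjusted p = 0.0115), 0.64 ± 0.22 in non-stress CSP1-FH (0.0331), 1.095 ± 0.18 in cold HF-RPL18 (3.55e-05) and 0.36 ± 0.18 in non-stress HF-RPL18 (0.156).

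The UGT76D1 call in cold HF-RPL18 held without any 1 array and after cyclic loess (0.80, adjusted p = 0.00161). That in cold CSP1-FH was lost without CSP1-IP replicate 1 (0.84, 0.117) or 2 (0.79, 0.129) and after loess (0.57, 0.0983). That in non-stress CSP1-FH was lost without total replicate 1 (0.55, 0.094), CSP1-IP replicate 1 (0.41, 0.369) or CSP1-IP replicate 2 (0.86, 0.0747) and after loess (0.35, 0.323). UGT76D1 was also the 1 member whose CSP1-IP level changed with cold in HF-RPL18 (0.94 ± 0.23, adjusted p = 0.0215, where 1.57% of all probe sets rose and 2.37% fell, 3.94% in all). That call was lost without non-stress CSP1-IP replicate 1 (0.75, 0.144) or 3 (0.89, 0.13) and after cyclic loess. Its total RNA had -0.09 in CSP1-FH, 0.14 in atcsp1-1 and 0.21 in HF-RPL18 with cold and passed in none of them.

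UGT74B1, which fell with cold in total RNA, was lower in CSP1-IP RNA in each comparison. It had 5.65 and 6.16 in CSP1-IP RNA of cold CSP1-FH, against 6.46 and 6.65 in total RNA, and 6.62 and 6.56 against 8.40 and 8.36 without stress. In HF-RPL18 it had 4.01, 5.88 and 4.54 in the cold, against 6.21, 6.09 and 6.35, and 6.31, 6.85 and 5.84 without stress, against 8.09, 8.12 and 8.31. Every CSP1-IP array lay below the total arrays of its group. The difference was -0.65 ± 0.42 in cold CSP1-FH (adjusted p = 0.296), -1.79 ± 0.42 in non-stress CSP1-FH (0.00307), -1.41 ± 0.35 in cold HF-RPL18 (0.00223) and -1.84 ± 0.35 in non-stress HF-RPL18 (0.000322). The call in non-stress CSP1-FH was lost without CSP1-IP replicate 2 (-1.75, 0.0716), and after cyclic loess the call in cold HF-RPL18 was lost (-0.68, 0.124). UGT74B1 was 1 of 12 members (25.5%) with a difference below 0 in all 4 comparisons, where 26.6% of all probe sets had that.

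**Figure D4:**
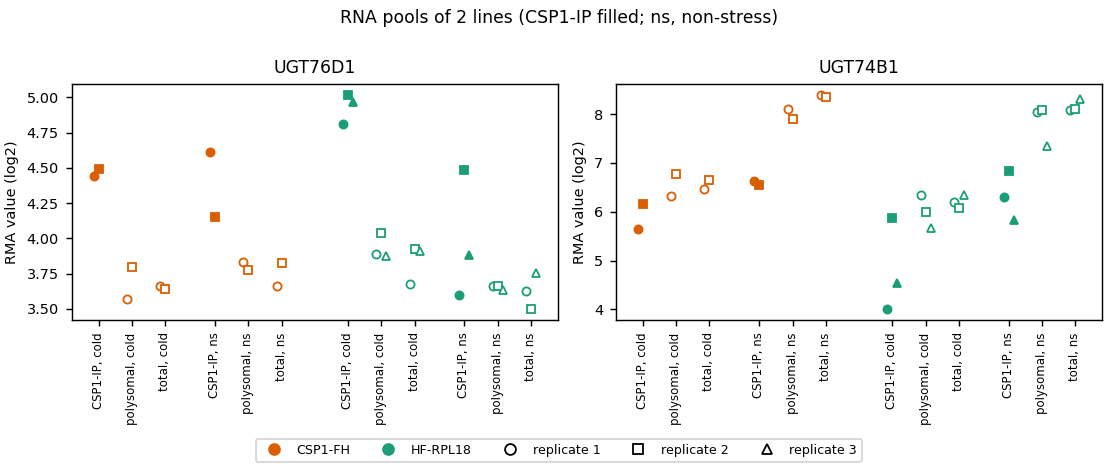
Deposited log2 values (y axes) of UGT76D1 and UGT74B1 on the arrays of CSP1-IP, polysomal and total RNA of CSP1-FH and HF-RPL18, cold left of non-stress; filled symbols are CSP1-IP arrays. UGT76D1 is highest in CSP1-IP RNA of cold HF-RPL18 (4.81 to 5.02), and UGT74B1 is lower in CSP1-IP RNA than in total RNA in each group.

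In non-stress HF-RPL18, UGT76E11 had 4.63, 3.90 and 4.13 in CSP1-IP RNA, against 6.24, 6.55 and 6.28 in total RNA, a difference of -2.14 ± 0.46 (adjusted p = 0.00131) that held without any 1 array and after cyclic loess (-2.06, 0.00201). UGT71B1 was lower there too (-1.53 ± 0.51, adjusted p = 0.0324), with 6.14, 5.94 and 5.58 against 7.57, 7.48 and 7.21. Its call was lost without total replicate 1 (-1.46, 0.0555), total replicate 2 (-1.50, 0.0505) or any of the 3 CSP1-IP arrays (-1.38 to -1.66, adjusted p 0.0988 to 0.164) and after loess (-1.17, 0.123). The members higher there were UGT72E2 (0.94 ± 0.33, adjusted p = 0.0445) and the dim UGT84B2 (0.64 ± 0.23, adjusted p = 0.0471), and both calls were lost after loess (0.88, 0.0687, and 0.40, 0.262). After loess UGT71C5 was gained as higher in non-stress plants, at 1.39 in CSP1-FH (adjusted p = 0.015, against 0.89 and 0.0935 on the deposited values) and 1.11 in HF-RPL18 (adjusted p = 0.0147, against 0.74 and 0.0986). UGT72E2 also lost its call without total replicate 1 (0.82, 0.0914), total replicate 2 (0.86, 0.0816) or CSP1-IP replicate 1 (0.89, 0.185), 2 (0.86, 0.184) or 3 (1.07, 0.0901). UGT84B2 lost its call without total replicate 1 (0.57, 0.0928), total replicate 3 (0.62, 0.0739), CSP1-IP replicate 2 (0.42, 0.352) or CSP1-IP replicate 3 (0.67, 0.129).

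In cold HF-RPL18 the members divided by level. Of the 15 dim members, 9 were higher in CSP1-IP RNA and 0 lower, with a median of 0.57. Of the 5687 dim probe sets of the array, 56.8% were higher and 0.0528% lower, with a median of 0.55, so the dim members were near the background. Of the 32 other members, 4 were higher and 9 lower, with a median of -0.64. Among those called higher were UGT73C1 and UGT71B5, whose total RNA in cold HF-RPL18 lay near the dim level of 3.13. It was 2.83, 3.14 and 2.90 for UGT73C1 and 3.12, 3.23 and 3.04 for UGT71B5. Of the other 17059 probe sets, 16.2% were higher and 25.6% lower, with a median of -0.12. The 10 largest called differences included 8 lower members. These were UGT74D1 (-2.49), UGT85A2 (-1.84), UGT72B3 (-1.78), UGT74B1 (-1.41), UGT76C2 (-1.39), UGT84A3 (-1.36), UGT80B1 (-0.99) and UGT72E1 (-0.96). The 2 higher ones were UGT73C1 (1.21 ± 0.28, adjusted p = 0.0013), with 4.79, 3.37 and 4.32 against 2.83, 3.14 and 2.90 in total RNA, and UGT76D1. UGT74D1 had 4.55, 4.85 and 5.11 in CSP1-IP RNA, against 7.80, 7.25 and 6.94 in total RNA (adjusted p = 0.0135), and UGT85A2 had 6.16, 5.22 and 5.98, against 7.55, 8.04 and 7.27 (adjusted p = 0.00651).

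Cyclic loess, which removes differences that depend on level between arrays, left 5 calls where there had been 22. The count over all probe sets after loess is not given here. UGT73C1 (0.73, adjusted p = 0.0465), UGT76D1, UGT85A7 (0.81, 0.0107) and UGT71C2 (-0.92, 0.00162) kept theirs, and UGT73B5 was gained (-0.68, 0.00606). UGT74D1 (-1.94, 0.0806), UGT85A2 (-1.12, 0.12), UGT72B3 (-1.49, 0.077), UGT76C2 (-0.96, 0.169), UGT84A3 (-0.68, 0.402), UGT80B1 (-0.50, 0.392) and UGT72E1 (-0.60, 0.268) did not. UGT71C1, called higher at 0.53, had -0.05 after loess (adjusted p = 0.877). On the deposited values, UGT74D1 lost its call without CSP1-IP replicate 1 (-2.35, 0.0509) and UGT72B3 without CSP1-IP replicate 2 (-1.39, 0.109). UGT76C2 lost it without total replicate 2 (-1.09, 0.0594), CSP1-IP replicate 2 (-1.22, 0.0879) or CSP1-IP replicate 3 (-1.001, 0.16), and UGT84A3 without the same arrays (-1.05 to -1.30, adjusted p 0.0907 to 0.183). UGT80B1 lost it without total replicate 1 (-0.90, 0.077) or 3 (-0.97, 0.0577) or CSP1-IP replicate 1 (-1.02, 0.0861) or 3 (-0.45, 0.413). UGT72E1 lost it without total replicate 1 (-0.85, 0.0739) or 2 (-0.84, 0.0767) or CSP1-IP replicate 1 (-0.72, 0.19) or 2 (-0.87, 0.108).

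**Figure D5:**
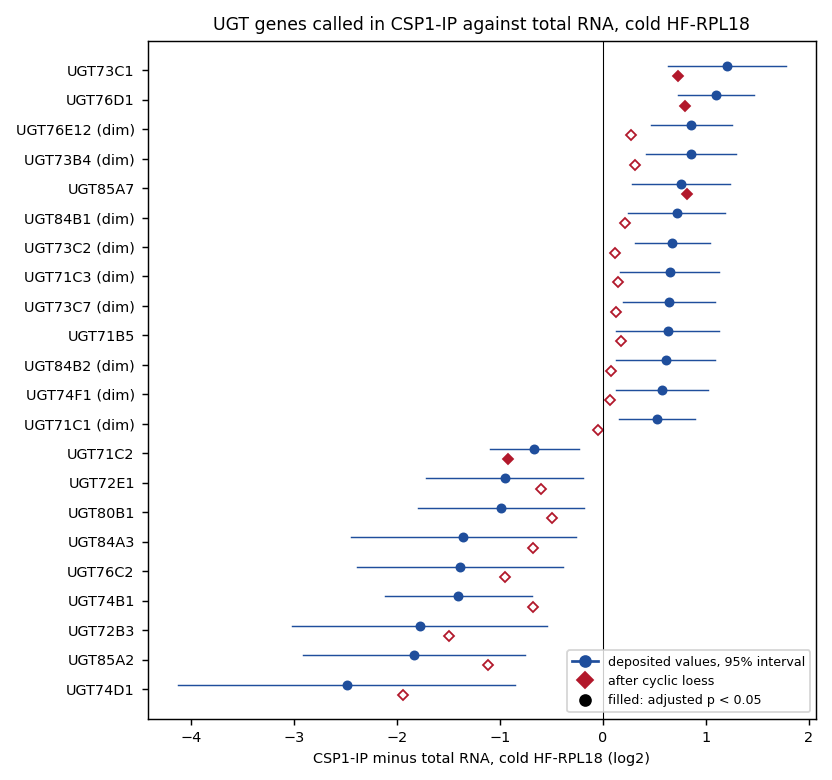
CSP1-IP minus total RNA in cold HF-RPL18 (log2, x axis) for the 22 UGT genes called there (y axis), from the deposited values with 95% intervals and after cyclic loess; filled symbols passed an adjusted p of 0.05. Most differences of the dim members move towards 0 after loess, and UGT73C1, UGT76D1, UGT85A7 and UGT71C2 stay past the threshold.

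In cold CSP1-FH, UGT85A2 was the 1 member called lower in CSP1-IP RNA (-2.09 ± 0.64, adjusted p = 0.026), with 5.73 and 5.79 against 7.60 and 8.10 in total RNA. The call was lost without CSP1-IP replicate 1 (-2.06, 0.213), CSP1-IP replicate 2 (-2.12, 0.177) or total replicate 2 (-1.84, 0.0725) and after loess (-1.67, 0.0919). UGT74D1 had a larger difference there that did not pass (-2.62 ± 0.98, adjusted p = 0.0646). The test of a difference between CSP1-FH and HF-RPL18 in CSP1-IP against total RNA gave 0 members in either condition (limma). At an unadjusted p below 0.05, 2 were higher and 5 lower in the cold (1587 of all 22746 probe sets in either direction). Without stress 1 was higher (1053 of all probe sets). The largest differences were those of UGT80B1 (1.46) and UGT73B1 (-1.43) in the cold and of UGT76E1 (0.81) and UGT76E11 (0.77) without stress. The test of a change of CSP1-IP against total RNA with cold gave 0 members in either line. At an unadjusted p below 0.05, 1 was higher in CSP1-FH (1165 of all probe sets in either direction). In HF-RPL18, 4 were higher and 4 lower (3439 of all probe sets). UGT85A5 (2.29) and UGT78D3 (-1.52) had the largest values in CSP1-FH, and UGT72B3 (-1.98) and UGT76C2 (-1.48) in HF-RPL18.

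CSP1-IP RNA was also set against polysomal RNA of HF-RPL18. In the cold 4 members were higher and 13 lower, where 19.6% and 16.1% of all probe sets were (35.7% in all), and without stress 0 were higher and 5 lower, where 9.4% and 10.7% were (20.1% in all). These values share the CSP1-IP arrays with those against total RNA, and share the polysomal arrays, with the sign turned, with polysome loading, so they are not separate evidence on either. UGT72E1 had -2.30 ± 0.38 in the cold (adjusted p = 5.04e-05) and -1.52 ± 0.38 without stress (adjusted p = 0.00495), and UGT71C2 had -1.53 ± 0.22 in the cold (adjusted p = 6.79e-06). UGT72B3 (-2.27) and UGT84A3 (-2.09) were lower in the cold as well. These calls held without any 1 array and after cyclic loess. UGT78D3 (-1.72) kept its cold call after loess and lost it without CSP1-IP replicate 3 (-1.68, 0.0555). UGT84A4 had -0.62 in the cold and -0.57 without stress and passed in neither.

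The other large differences from polysomal RNA lost their calls after cyclic loess or without some arrays. In the cold, UGT71C4 had -1.26 ± 0.30 (adjusted p = 0.00216) and -0.57 after loess (0.265), and its call held without any 1 array. UGT74D1 had -2.61, and -2.23 after loess (0.0525), and lost its call without CSP1-IP replicate 1 (-2.47, 0.0528). UGT76C2 had -1.60, and -1.34 after loess (0.0597), and lost it without 3 of the 6 arrays (-1.22 to -1.43, adjusted p 0.0514 to 0.114). UGT85A2 had -1.56, and -0.98 after loess (0.2), and lost it without 4 of them (-1.27 to -1.66, adjusted p 0.0503 to 0.115). UGT74B1 had -1.19, and -0.60 after loess (0.201), and lost it without CSP1-IP replicate 1 (-0.79, 0.134) or 3 (-1.06, 0.0611).

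Without stress, UGT76E11 (-1.68) and UGT74B1 (-1.50) kept their calls after loess. UGT76E11 lost its call without CSP1-IP replicate 2 (-1.52, 0.095) or 3 (-1.63, 0.0743), and UGT74B1 without CSP1-IP replicate 3 (-1.25, 0.0567). UGT71B1 (-1.55) lost its call after loess (-1.28, 0.101) and without 5 of the 6 arrays (-1.40 to -1.67, adjusted p 0.0535 to 0.182). UGT71C4 (-1.06 ± 0.30, adjusted p = 0.012) lost its call after loess (-0.64, 0.241) and without CSP1-IP replicate 1 (-1.06, 0.063) or 2 (-0.98, 0.0823). After cyclic loess, 7 members passed in the cold and 3 without stress, and the count over all probe sets after loess is not given here.

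The members that rose with cold in total RNA had a smaller median cold difference in CSP1-IP RNA. They were picked by their total RNA values, so this is a description with no test. Values also spread less over probe sets on CSP1-IP arrays (SD 1.83 to 2.14, against 2.27 to 2.32 on total arrays), and the part of this was not tested. Of the 9 that rose in total RNA of CSP1-FH, 8 had a positive cold difference in CSP1-IP RNA, with a median of 0.50 against 1.14 in total RNA, and none passed (0.233% of all probe sets rose and 0.0791% fell there). Of the 12 that rose in total RNA of HF-RPL18, 9 had a positive cold difference in CSP1-IP RNA, with a median of 0.17 against 0.93 in total RNA. Of the 5 that fell in total RNA of CSP1-FH, 3 had a negative cold difference in CSP1-IP RNA and 2 a positive one, with a median of -0.29 against -1.22 in total RNA. The 5 that fell in HF-RPL18 all had a negative one, with a median of -0.65 against -1.49. Of these, UGT78D1 alone fell more in CSP1-IP RNA (-1.99) than in total RNA (-1.45). UGT78D3 had 3.78 and 5.77 in CSP1-IP RNA of cold CSP1-FH against 2.84 and 3.53 without stress, and 4.55, 4.62 and 4.47 in HF-RPL18 against 3.45, 3.49 and 3.04. Its cold difference in CSP1-IP RNA was 1.59 in CSP1-FH and 1.22 in HF-RPL18, with no overlap between the groups in either line, and did not pass in either. UGT72B3 had the largest cold difference there in CSP1-FH (1.67), which did not pass.

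Few of the genes in the pathways around the family had a named probe set. None of the 20 sugar donor genes, 8 flavonol synthesis genes or 11 glucosinolate genes listed did, so the acceptor and donor side of the changes above was not measured by name. In the phenylpropanoid list 1 of 13 was measured. It was ALDH2C4, which oxidises sinapaldehyde and coniferaldehyde, and it fell with cold in total RNA by 0.66 in CSP1-FH, by 0.64 in atcsp1-1 and by 0.79 in HF-RPL18 (limma, adjusted p = 0.0416, 0.043 and 0.00166). In the salicylate list 1 of 6 was measured, BSMT1, a methyltransferase, with -0.23 in HF-RPL18, which did not pass. In the list of hormone inactivation outside the family 4 of 16 were measured. GH3.3, which conjugates auxin to amino acids, rose by 2.76 ± 0.43 in CSP1-FH, 2.19 ± 0.43 in atcsp1-1 and 2.66 ± 0.35 in HF-RPL18 (adjusted p = 3.05e-05, 0.000426 and 1.41e-06). AT1G14130, the auxin oxidase DAO1, had -0.73, -0.87 and -0.92 in CSP1-FH, atcsp1-1 and HF-RPL18 and fell in each line (adjusted p = 0.0376, 0.0111 and 0.000911). GH3.1 had 0.22 in HF-RPL18 and did not pass, and WES1, another GH3 enzyme, was loaded on polysomes of cold HF-RPL18 (0.81 ± 0.27, adjusted p = 0.0444).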

How the data were processed

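Total, polysomal and CSP1-IP RNA of 3 lines was measured on 38 ATH1 arrays in 16 groups, as their titles give them. The authors deposited log2 values per probe set from RMA, per the submitters' processing notes. Neither its version nor which arrays were normalised in 1 run is given in the sources used here. Values spread over probe sets with an SD of 1.83 to 2.14 on CSP1-IP arrays, 2.22 to 2.31 on polysomal and 2.27 to 2.32 on total arrays, so the pools do not share 1 distribution. Values were used as deposited.

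Of 22810 probe sets, 64 controls were left out. Of the 22746 tested, 13513 had exactly 1 annotated gene, 503 had several and 8730 had none. Differences were fitted with limma 3.58.1 (lmFit, eBayes) in R 4.3.3, with 1 coefficient for each group, a weight per RNA pool (0.33 for CSP1-IP, 1.24 for polysomal, 1.79 for total), 22 residual and 4.32 prior degrees of freedom, and Benjamini-Hochberg adjusted p-values. The procedure was tested on simulated data. The series calls its replicates biological, and no 2 arrays held identical values.

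Same-numbered total and polysomal arrays of HF-RPL18 deviated together (r 0.314 to 0.725 over its pairs), so the number pairs them. CSP1-IP arrays fell short of that in at least 1 pair of each HF-RPL18 comparison. The other lines have 2 pairs per comparison and were not counted as paired. There, r was 0.467 to 0.594 between total and polysomal arrays. Between cold and non-stress arrays of total or polysomal RNA it was 0.151 to 0.232. The alternatives were 1 unweighted spread, cyclic loess, a filter on dim probe sets, the replicate block, each array left out and, chosen after seeing the data, a fit without CSP1-IP arrays.

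The members, gene lists and naming rule were chosen with earlier results of these data known. The rule named the members past the threshold in each comparison, up to the 10 largest differences, or the 2 largest where none passed, the member of each subfamily with the largest response in HF-RPL18, and up to 4 genes per list.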

Additional observations from a re-analysis of the deposited data

Results flagged for a closer look

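In 5 pairs of comparisons every array of the first lay on the opposite side of its reference from every array of the second. No comparison passed the test. Such pairs were not counted over all probe sets, so the 5 have no background beside them and are not a result about the family. Each difference is a log2 value from groups of 2 or 3 arrays, and the difference between the comparisons was not tested. The polysome loading of UGT71C1, a dim member, was -0.15 in cold CSP1-FH and 0.24 in cold atcsp1-1, and was 0.20 in non-stress CSP1-FH. The loading of UGT73C7, also dim, was 0.21 in cold and -0.16 in non-stress CSP1-FH. The loading of UGT85A3 was 0.28 in cold and -0.51 in non-stress CSP1-FH. The cold difference of the dim UGT73C2 in CSP1-IP RNA was -0.19 in CSP1-FH and 0.62 in HF-RPL18.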

How the results depend on the processing

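Of the 131 calls of members, 56 held without each array left out in turn, and 1 difference changed sign, that of UGT71C1 in CSP1-IP against cold HF-RPL18 total RNA after cyclic loess (-0.047, adjusted p = 0.877); the cause was not tested. In the counts below, the count on the deposited values follows in brackets. Counts over all probe sets under the alternatives are not given here, so the changed counts have no background beside them. With 1 unweighted spread, 4 members were called in the total RNA cold response of CSP1-FH (14), 7 in atcsp1-1 (11) and 11 in HF-RPL18 (17), and the loading counts were 0 in cold CSP1-FH (1), 0 in cold atcsp1-1 (2) and 1 in non-stress HF-RPL18 (2). CSP1-IP counts then were 9 in cold (2) and 9 in non-stress CSP1-FH (2) against total RNA, 29 in cold (17) and 9 in non-stress HF-RPL18 (5) against polysomal RNA, 3 for the cold change of CSP1-IP RNA in CSP1-FH (0) and 12 in HF-RPL18 (1), and 3 for the change of CSP1-IP against total RNA with cold in HF-RPL18 (0). After cyclic loess, CSP1-IP against total RNA gave 0 in cold CSP1-FH (2), 5 in cold (22) and 3 in non-stress HF-RPL18 (5). Against polysomal RNA it gave 7 in the cold (17) and 3 without stress (5), and the cold change in HF-RPL18 gave 0 (1). Without dim probe sets, the counts were 14 for CSP1-IP against total RNA in cold HF-RPL18 (22), 2 for its cold change (1) and 1 for loading in cold atcsp1-1 (2); dim members were not tested there. Without CSP1-IP arrays, loading in cold atcsp1-1 gave 0 (2). With the replicate block, the polysomal cold response gave 10 in CSP1-FH (5) and 17 in HF-RPL18 (11). Loading gave 2 in cold (1) and 4 in non-stress CSP1-FH (1), 1 in non-stress atcsp1-1 (0), 10 in cold (4) and 4 in non-stress HF-RPL18 (2). CSP1-IP against total RNA gave 4 in cold (2) and 4 in non-stress CSP1-FH (2), and its change with cold gave 1 in HF-RPL18 (0). The block moved no other count by over 1.5 times. Pairing was counted as borne out only for total and polysomal arrays of HF-RPL18, as the other lines have 2 pairs per comparison. Leaving out 1 array gave 6 to 8, 7 to 10 and 14 to 17 calls in the total RNA cold response of CSP1-FH, atcsp1-1 and HF-RPL18, and 4 to 5, 5 to 8 and 9 to 12 in polysomal RNA. Loading gave 0 to 1, 0 to 1 and 3 to 4 in the cold and 0 to 2, 0 to 0 and 1 to 2 without stress. CSP1-IP against total RNA gave 0 to 4 in cold and 0 to 2 in non-stress CSP1-FH, 12 to 21 in cold and 2 to 4 in non-stress HF-RPL18, and against polysomal RNA 9 to 18 and 2 to 6. The cold change of CSP1-IP RNA in HF-RPL18 gave 0 to 4, and the change of CSP1-IP against total RNA with cold there 0 to 2. For arrays with 2 per group, a left-out array leaves 1 assumed to vary like the other groups. The 15 dim members lie near the bottom of the measured range, which limits what can be seen of a fall.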
